A study of Arabidopsis thaliana with 6 samples.

Results

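BIG GRAIN-like genes are plant genes named after rice BIG GRAIN1, and 5 Arabidopsis thaliana loci of that name, AT5G12050, AT3G42800, AT1G54200, AT3G13980 and AT1G69160, are described here across 3 groups of seedlings. Each locus had 1 probe set paired with it alone on the Affymetrix ATH1 array, so all 5 were measured, out of 13333 genes with such a probe set and 22746 probe sets tested. None of these probe sets carries the suffix by which the maker marks a match to several transcripts. The genes were chosen by locus tag, with the values of these 6 arrays in all 3 comparisons already in view. Their levels and differences are therefore given as a description, with standard errors but no p-value for any of them. Where the text says that one of them was called, that is its side of the threshold in the fit over all probe sets, given as part of that description and to be read against the share of all probe sets called in the comparison.

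Rice BIG GRAIN1 encodes a protein associated with the plasma membrane, and rice plants with more of it have larger grains and an altered response to and transport of auxin. In auxin signalling, auxin response factors such as MONOPTEROS (MP) activate early auxin genes, Aux/IAA proteins such as BODENLOS (BDL) bind and block them, and auxin triggers the breakdown of the Aux/IAA proteins. The mutant form bdl is resistant to that breakdown. The reference table used here gives the 5 loci no symbol beyond the locus tag, and no protein sequence was used, so the family name is the label under which they were grouped and was not checked on sequence. No separate role in Arabidopsis is stated here for any single one of them.

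The mp-B4149 seedlings are mutant for MP and were given DEX and then IAA, per their source labels and the design text, although their titles name IAA alone. The GR-bdl seedlings carry bdl with a Myc tag and the hormone-binding part of the glucocorticoid receptor, driven by the RPS5A promoter, and were given either DEX and then IAA or IAA alone. DEX (dexamethasone) is a synthetic glucocorticoid that lets such a fusion protein enter the nucleus, and it was used at 10 µM for 1 h, followed by 50 µM of the auxin IAA for 1 h in all 3 groups. Each group had 2 arrays, each from a separate liquid culture of whole seedlings after 9 days of growth. All groups received auxin, so induction by auxin itself was not measured and the words auxin-responsive in the name of the gene group were not checked. The effect of DEX on plants that lack the fusion protein can be seen in no pair of groups, since the mp seedlings all received it. The labels used here do not name the accession in which either line was made.

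The median intensity of the 6 arrays lay between 26.1 and 27.1, and the SD between the 2 arrays of a group had a median of 0.10 in mp, 0.11 in GR-bdl with DEX and 0.07 in GR-bdl without DEX on the log2 scale. The number of arrays limits the precision. Between 43.1% and 44.1% of the probe sets of an array lay under 4 on the log2 scale, which is called the low end of the range below. Added hybridization control RNAs differed by a median of 0.33 between mp and GR-bdl without DEX, by 0.24 between mp and GR-bdl with DEX and by 0.05 between the GR-bdl groups. For the poly-A controls, RNAs added before labelling, these medians were 0.57, 0.16 and 0.36. Photosynthesis genes of green tissue were all well above the low end, and of the 4 measured root genes 3 lay there in mp. Intensities of different probe sets depend on their probes, so levels are compared between groups for 1 gene and not between genes.

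All 5 BIG GRAIN-like genes had their highest mean level in GR-bdl seedlings given IAA alone. They split by which group was lowest. AT5G12050, AT1G54200 and AT1G69160 were lowest in GR-bdl seedlings given DEX, whereas AT3G42800 and AT3G13980 were lowest in mp seedlings. AT1G69160 stood nearly as high in mp as in GR-bdl without DEX, and AT3G13980 differed least between the GR-bdl groups.

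AT5G12050 had intensities of 279 and 235 in mp, 137 and 110 in GR-bdl with DEX, and 726 and 745 in GR-bdl without DEX. The 3 groups did not overlap, with mp between the GR-bdl groups. On the log2 scale the levels were 8.00 ± 0.18 in mp, 6.94 ± 0.22 in GR-bdl with DEX and 9.52 ± 0.03 in GR-bdl without DEX (SD, n = 2 each). The log2 difference between GR-bdl with and without DEX was −2.58 ± 0.14 (limma SE), 5.98-fold lower with DEX. In mp the log2 difference was −1.52 ± 0.14 against GR-bdl without DEX, 2.88-fold lower, and 1.06 ± 0.14 against GR-bdl with DEX, 2.08-fold higher. Each of these differences was several times the SD of its groups.

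AT1G69160 had intensities of 62.2 and 56.6 in mp, 10.2 and 15.9 in GR-bdl with DEX, and 64.1 and 64.2 in GR-bdl without DEX. The arrays of GR-bdl with DEX were far below the other 4, and mp was just below GR-bdl without DEX. The log2 levels were 5.89 ± 0.10 in mp, 3.67 ± 0.45 in GR-bdl with DEX and 6.00 ± 0.0004 in GR-bdl without DEX (SD, n = 2 each). The arrays of GR-bdl with DEX, at 3.355 and 3.993, lay in the low end of the range. The log2 difference between GR-bdl with and without DEX was −2.33 ± 0.19 (5.03-fold lower). The log2 difference of mp from GR-bdl with DEX was 2.22 ± 0.19 (4.65-fold higher). Against GR-bdl without DEX, mp differed by −0.11 ± 0.19, and the gap between the nearest arrays, 0.04, was smaller than the SD of the mp arrays. Centring the arrays on the hybridization controls made this difference −0.45, and it was −0.18 without mp replicate 1 and −0.04 without mp replicate 2. With 16 added to each intensity before the log2, the other 2 differences shrank to −1.47 and 1.38, since 1 group lies in the low end. That position limits the sizes of these differences.

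AT1G54200 had intensities of 15.1 and 17.2 in mp, 9.90 and 8.34 in GR-bdl with DEX, and 22.2 and 33.0 in GR-bdl without DEX. The order of the groups was that of AT5G12050, and the groups did not overlap. The log2 levels were 4.01 ± 0.13 in mp, 3.18 ± 0.17 in GR-bdl with DEX and 4.76 ± 0.41 in GR-bdl without DEX (SD, n = 2 each), so all 3 groups lay at or close to the low end. The log2 difference was −1.57 ± 0.19 between GR-bdl with and without DEX, −0.75 ± 0.19 between mp and GR-bdl without DEX, and 0.82 ± 0.19 between mp and GR-bdl with DEX. With 16 added to each intensity these became −0.78, −0.43 and 0.35, and none was then called. The difference of mp from GR-bdl without DEX also lost its call without replicate 2 of GR-bdl without DEX (−0.46) or mp replicate 1 (−0.66), and that from GR-bdl with DEX lost it without replicate 2 of GR-bdl with DEX (0.70) or mp replicate 2 (0.73).

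AT3G42800 had intensities of 24.6 and 20.8 in mp, 45.7 and 34.3 in GR-bdl with DEX, and 184 and 183 in GR-bdl without DEX. The arrays of GR-bdl without DEX were several times brighter than the other 4, and mp was the lowest group. The log2 levels were 4.50 ± 0.17 in mp, 5.31 ± 0.29 in GR-bdl with DEX and 7.52 ± 0.01 in GR-bdl without DEX (SD, n = 2 each). The log2 difference between GR-bdl with and without DEX was −2.21 ± 0.16 (4.64-fold lower). In mp it was −3.02 ± 0.16 (8.11-fold lower) against GR-bdl without DEX, the lowest value of the 5 genes in any of the 3 comparisons. Against GR-bdl with DEX, mp differed by −0.81 ± 0.16, which became −0.53 with 16 added to each intensity and stayed called.

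AT3G13980 had intensities of 58.6 and 40.1 in mp, 66.2 and 79.7 in GR-bdl with DEX, and 103 and 91.8 in GR-bdl without DEX. The groups followed each other in small steps without overlap, and the 2 mp arrays lay furthest apart. The log2 levels were 5.60 ± 0.39 in mp, 6.18 ± 0.19 in GR-bdl with DEX and 6.60 ± 0.12 in GR-bdl without DEX (SD, n = 2 each). The log2 difference between GR-bdl with and without DEX was −0.42 ± 0.19 and was not called, and the gap of 0.20 between the nearest arrays was about the SD within GR-bdl with DEX. In mp it was −1.01 ± 0.19 (2.01-fold lower) against GR-bdl without DEX. Against GR-bdl with DEX, mp differed by −0.58 ± 0.19, which lost its call without replicate 2 of GR-bdl with DEX (−0.45), without mp replicate 2 (−0.31), without either array of GR-bdl without DEX, with only the 4 arrays compared, or with 16 added (−0.46).

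**Figure D1:**
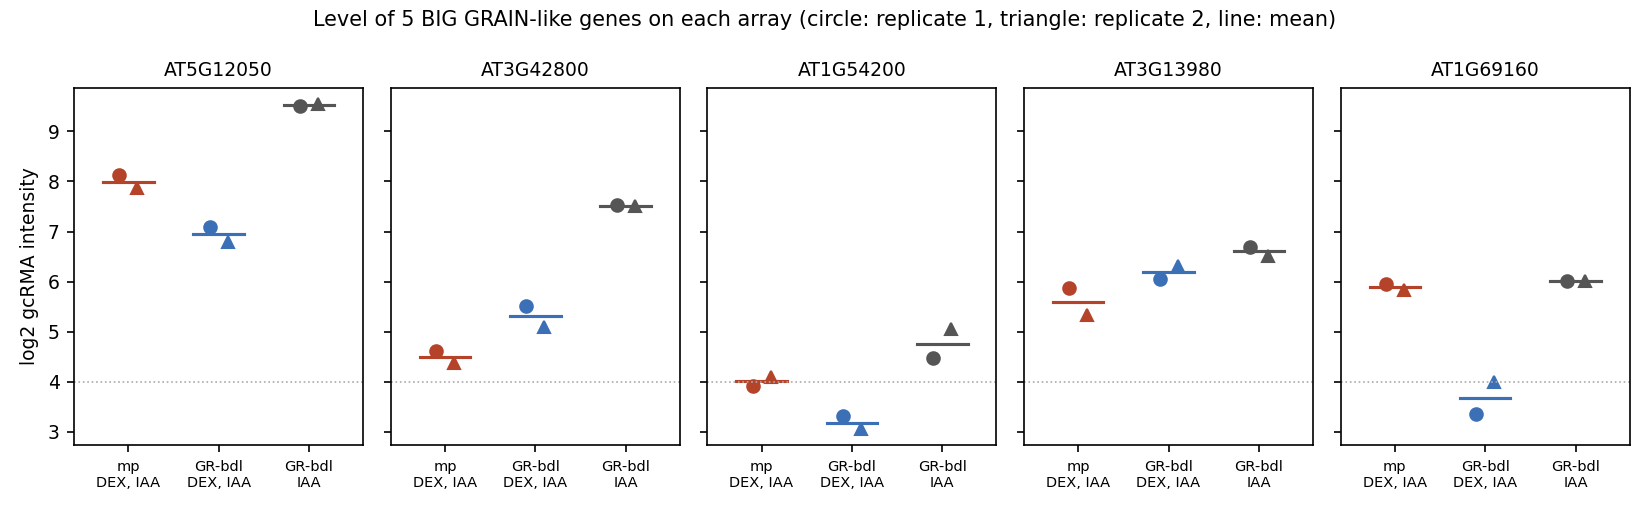
Log2 gcRMA intensity of each BIG GRAIN-like gene (1 panel each) on the 6 arrays, with mp (DEX, IAA), GR-bdl (DEX, IAA) and GR-bdl (IAA) from left to right, circles for replicate 1, triangles for replicate 2 and a line at the group mean; the dotted line marks 4, the low end of the range. GR-bdl without DEX is highest in every panel, and the lowest group is GR-bdl with DEX for AT5G12050, AT1G54200 and AT1G69160 and mp for AT3G42800 and AT3G13980; heights are not comparable between panels.

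The first comparison set GR-bdl seedlings given DEX before auxin against those given auxin alone. Release of GR-bdl and an effect of DEX itself cannot be told apart in it. All 5 genes were lower with DEX, by log2 differences of −2.58 to −0.42 with a median of −2.21, while the median over all probe sets was 0.04. Of the 5 genes, 4 were called lower (limma, Benjamini-Hochberg adjusted p under 0.05 over all probe sets) and 0 higher, beside 1.64% of all probe sets called lower and 0.637% called higher. All 5 differences were below 0. Since the genes were chosen with this contrast in view, nothing is read from that count. Counted from the lowest difference of the 22746 probe sets, AT5G12050 ranked 35, AT1G69160 46, AT3G42800 57, AT1G54200 109 and AT3G13980 891. The arrays of the 2 groups did not overlap for 5 of 5 genes, as for 44.1% of all probe sets.

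The second comparison set mp seedlings, which lack MP function, against GR-bdl seedlings without DEX, with line and DEX both differing. The 5 genes were lower in mp by log2 differences of −3.02 to −0.11 with a median of −1.01, while the median over all probe sets was 0.12. Here 4 genes were called lower and 0 higher, beside 17.5% of all probe sets called lower and 23.9% called higher. With the arrays centred on the hybridization controls the same 4 and 0 were counted, but the background turned round, to 32.5% lower and 11.2% higher, and the median over all probe sets was −0.22. AT3G42800 ranked 398 from the lowest difference, AT5G12050 1087, AT3G13980 1773, AT1G54200 2385 and AT1G69160 6597. The arrays did not overlap for 5 of 5 genes, as for 76.7% of all probe sets, so that a separation was the usual case in this comparison.

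Markers of root and shoot are given beside this comparison, since mp mutants are known to lack a primary root. A listed gene is called measured where a probe set was paired with it alone, so the others are not shown to be absent from the array. Of 13 listed root genes 4 were measured, and 3 of these fell in mp against GR-bdl without DEX (limma), with log2 differences of −3.80 ± 0.22 for EXPA7 and −2.89 ± 0.25 for EXPA18, both expansins expressed in root hairs, and −1.52 ± 0.18 for JKD, which acts in root tissue patterning. PYK10, which encodes a beta-glucosidase of roots, stood at a log2 difference of 0.10 ± 0.11 and carried most of the summed root intensity, which was 9780 to 10415 in mp, 9390 to 9893 in GR-bdl with DEX and 9501 to 9813 in GR-bdl without DEX. Of 7 listed genes of green tissue 4 were measured, with a summed intensity of 34947 to 36659 in mp, 37249 to 38946 in GR-bdl with DEX and 37418 to 37576 in GR-bdl without DEX. Of these 4, SBPASE of the Calvin cycle was called higher in mp than in GR-bdl without DEX (0.31 ± 0.11, limma), but stood at −0.02 with the arrays centred on the hybridization controls, where RCA (−0.51) and LHCB4.1 (−0.51) were called lower. The call of SBPASE was also lost without either mp array or either array of GR-bdl without DEX. On the log2 scale EXPA7 (3.65), EXPA18 (3.70) and JKD (3.16) lay in the low end of the range in mp, and PYK10 (13.3) lay far above it. The part of organ makeup in the values of the BIG GRAIN-like genes in mp was not tested, and in whole seedlings fewer cells of a type and less RNA per cell cannot be told apart. Between the GR-bdl groups 0 of the 4 root genes and 0 of the 4 green tissue genes were called by limma, with 2 and 0 of them at an unadjusted p under 0.05 and median log2 differences of −0.25 and 0.03. The share of all probe sets at that unadjusted p is not given here, so nothing is read from those counts. With the arrays centred on the hybridization controls JKD was called lower between the GR-bdl groups too (−0.87).

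In the third comparison mp was set against GR-bdl with DEX, where the source labels give both the same treatment and the lines differed. The 5 genes went both ways, from −0.81 to 2.22 on the log2 scale with a median of 0.82, while the median over all probe sets was 0.07. AT1G69160, AT5G12050 and AT1G54200 were the 3 genes called higher in mp, beside 22.1% of all probe sets called higher. AT3G42800 and AT3G13980 were the 2 called lower, beside 18.0% called lower. Centred on the hybridization controls, the 5 genes kept these calls and signs, while 12.5% of all probe sets were called higher and 29.6% lower, with a median of −0.20. Here too 3 of the 4 measured root genes were called lower in mp, at −3.29 ± 0.22 for EXPA7, −2.98 ± 0.25 for EXPA18 and −0.72 ± 0.18 for JKD. PYK10 stood at 0.10 ± 0.11 and was not called, and the median of the 4 was −1.85. The call of JKD was lost without replicate 2 of GR-bdl with DEX or mp replicate 2, and the part of organ makeup in the lower values of AT3G42800 and AT3G13980 was not tested. For 5 of 5 genes the arrays did not overlap, as for 68.5% of all probe sets. This comparison shares its GR-bdl arrays with the first and its mp arrays with the second, so the 3 sets of differences are not independent of each other.

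**Figure D2:**
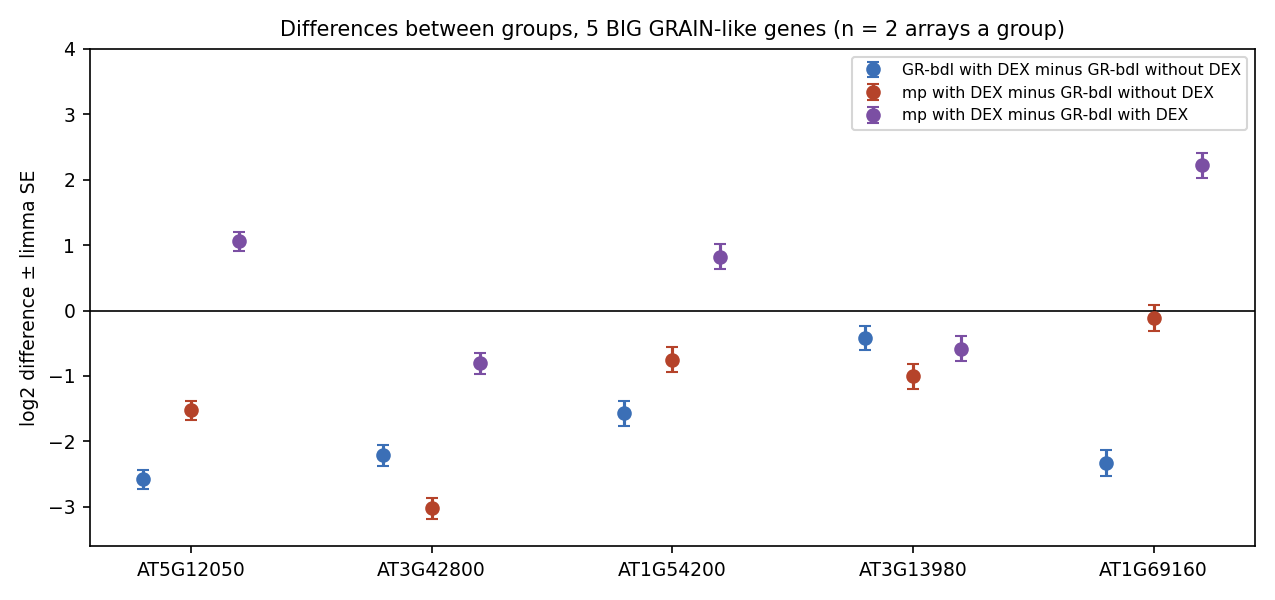
Log2 differences with limma standard errors for the 5 BIG GRAIN-like genes, with GR-bdl with DEX minus GR-bdl without DEX in blue, mp minus GR-bdl without DEX in red and mp minus GR-bdl with DEX in purple (n = 2 arrays a group). The blue points run from −2.58 to −0.42 and the red ones from −3.02 to −0.11, and the purple points are above 0 for AT5G12050, AT1G54200 and AT1G69160 and below 0 for AT3G42800 and AT3G13980.

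The profiles of the 5 genes over the 6 arrays were then set against each other and against all other probe sets paired with 1 gene. Each probe set was centred on its own mean log2 level, and likeness was the root mean square (RMS) difference between 2 such profiles, so that 0 would mean the same profile. Among the BIG GRAIN-like genes the most alike were AT5G12050 and AT1G54200, at an RMS difference of 0.47. The least alike were AT3G42800 and AT1G69160, at 1.43, the pair with the lowest and the highest difference between mp and GR-bdl with DEX. AT1G69160 stood at 0.65 from AT1G54200 and 0.67 from AT5G12050, and AT3G13980 was at 0.70 or more from every other.

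The 5 genes closest to AT1G69160 were BRH1, a brassinosteroid-responsive RING-H2 gene, HAT2, a homeodomain factor gene, AT3G50340, GH3.3, whose enzyme joins auxin to amino acids, and IAA30, an Aux/IAA repressor gene. Their RMS differences from it were 0.13, 0.18, 0.19, 0.25 and 0.30. BRH1 differed by −2.41 between GR-bdl with and without DEX and by −0.10 between mp and GR-bdl without DEX on the log2 scale, and AT3G50340 by −2.23 and 0.08. These 5 were picked for profiles close to that of AT1G69160. That they too were lowest in GR-bdl with DEX follows from this choice and is not a separate result.

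Closest to AT5G12050 were AT3G28420 (RMS difference 0.19), AT2G43140 (0.31), AT1G24530 (0.32), AT1G21830 (0.38) and GH3.1 (0.39), another gene of the auxin-conjugating enzymes. AT3G28420 differed by −2.73 between GR-bdl with and without DEX, by −1.74 between mp and GR-bdl without DEX and by 0.99 between mp and GR-bdl with DEX, a pattern with mp between the GR-bdl groups. Its levels in mp (3.39) and GR-bdl with DEX (2.40) lay under the low end of the range, as did those of GH3.1 (3.24 and 2.89). AT1G21830 was also among the 5 closest to AT1G54200 (0.28), with AT2G41890 (0.24), AT2G39870 (0.24), AT2G36220 (0.27) and the bZIP factor gene BZIP61 (0.28).

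Closest to AT3G42800 were AT3G19200 (0.24), AT1G06830 (0.31), the expansin gene EXPA8 (0.33), AT5G58750 (0.44) and AT1G80280 (0.46). AT3G19200 differed by −1.94 between GR-bdl with and without DEX and by −2.66 between mp and GR-bdl without DEX. For EXPA8 these differences were −2.09 and −2.35. Both had their lowest mean in mp, but the difference of EXPA8 between mp and GR-bdl with DEX (−0.26 ± 0.14) was not called. AT3G19200 lay under the low end in mp (2.85) and GR-bdl with DEX (3.57), as did AT5G58750 (1.94 and 3.03). Closest to AT3G13980 were AT4G11550 (0.08), AT5G61990 (0.10), AT3G43430, the WRKY factor gene WRKY53 and AT4G21170 (0.14 each). Its small differences bring many probe sets close to it, and AT4G11550, WRKY53 and AT4G21170 were under 4 on the log2 scale in all 3 groups.

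**Figure D3:**
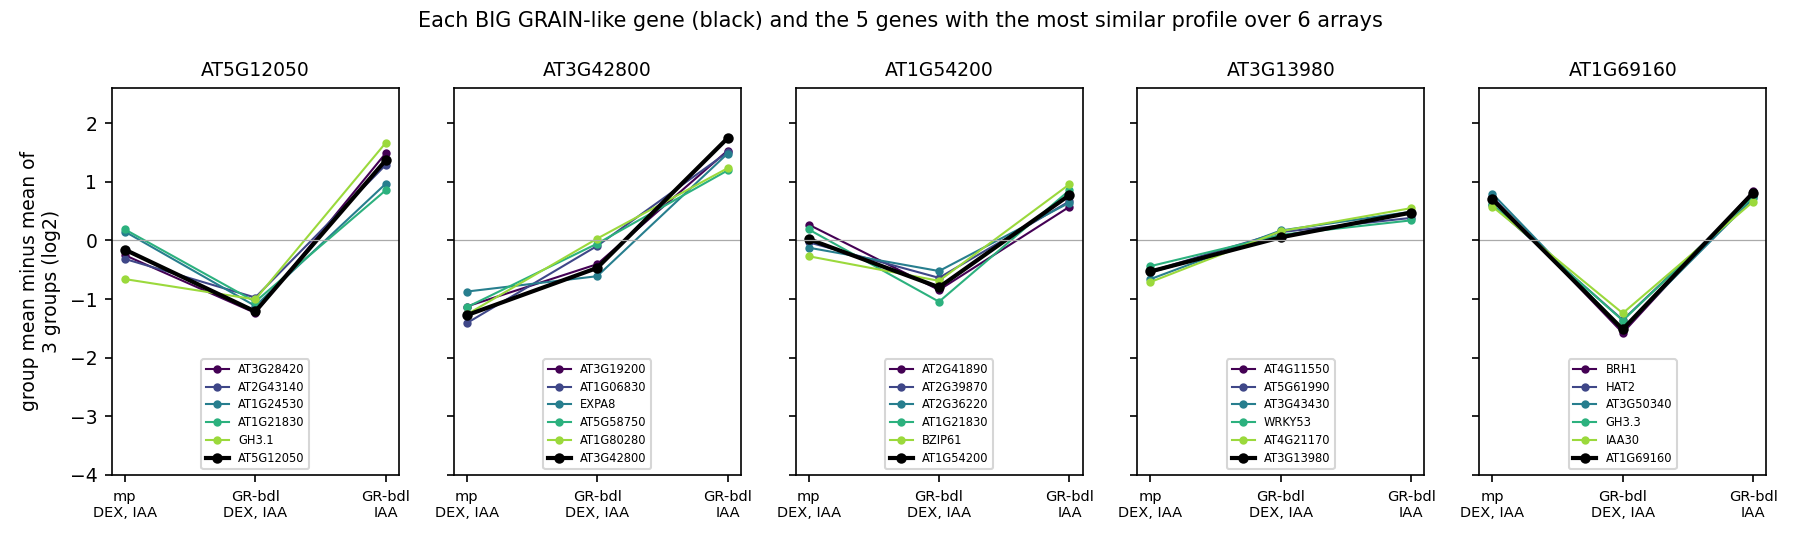
Group mean minus the mean of the 3 groups (log2) for each BIG GRAIN-like gene (black) and the 5 genes with the smallest RMS difference over the 6 arrays (coloured), with mp (DEX, IAA), GR-bdl (DEX, IAA) and GR-bdl (IAA) from left to right. The profile of AT1G69160 dips in GR-bdl with DEX alone, those of AT5G12050 and AT1G54200 dip there with mp in between, and those of AT3G42800 and AT3G13980 are lowest in mp.

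Of the 24 distinct genes named as closest, 5 are on the 3 lists of early auxin genes used here, namely 3 of the 5 closest to AT1G69160, 1 each for AT5G12050 and AT3G42800, and 0 for AT1G54200 and AT3G13980. These lists hold 50 genes, of which 20 were measured, out of the 13333 genes with a probe set paired with 1 gene. The Aux/IAA and GH3 lists hold genes by family, and induction of those genes by auxin was not measured here. The closest genes were picked by likeness to genes chosen with these arrays in view, so nothing is read from this overlap. Between GR-bdl with and without DEX, 10 of the 20 fell and 0 rose (limma; 15 and 0 at an unadjusted p under 0.05), with a median log2 difference of −0.87 beside 0.04 over all probe sets. The share of all probe sets at that unadjusted p is not given here, so nothing is read from the counts of 15 and 0. Of the BIG GRAIN-like genes 4 of 5 were called lower in that comparison, with the median of −2.21 given above. Of all probe sets 1.64% were called lower there and 0.637% higher. Both sets of genes were chosen with results of these data known, so their medians are not weighed against each other. SAUR10, a small auxin up RNA gene, at −4.54 ± 0.15, and IAA29, an Aux/IAA gene, at −4.24 ± 0.15, had lower log2 differences than any BIG GRAIN-like gene, as did GH3.1 at −2.67 ± 0.13. In GR-bdl with DEX, SAUR10 (2.68) and GH3.1 (2.89) lay under the low end of the range, which limits the sizes of their differences.

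Between mp and GR-bdl without DEX, 8 of the 20 early auxin genes fell, 3 rose and 9 were not called (limma), with a median of −0.14 beside 0.12 over all probe sets. Among those not called, IAA31, IAA33 and GH3.9 lay under the low end of the range in all 3 groups, where a change could hardly be seen. Of all probe sets 17.5% were called lower and 23.9% higher in this comparison. The 3 that rose were IAA34 (4.22 ± 0.14), GH3.17 (3.49 ± 0.17) and IAA20 (2.86 ± 0.15), and 0 of the BIG GRAIN-like genes were called higher there. IAA34, GH3.17 and IAA20 lay under the low end of the range in the GR-bdl groups, which limits the sizes of these rises. The decreases included LBD29 (−3.02 ± 0.24), a gene of lateral root initiation, whose level in mp, 2.00, lay under the low end of the range, so that the size of its difference is limited by it. Between mp and GR-bdl with DEX, 10 rose, 2 fell and 8 were not called, with a median of 0.47 beside 0.07. There 22.1% of all probe sets were called higher and 18.0% lower. LBD29 (−1.75 ± 0.24) and XTH19 (−0.98 ± 0.10), a gene of a wall-remodelling enzyme, were the 2 that fell, lower in mp than in GR-bdl with DEX as AT3G42800 and AT3G13980 were. LBD29 lay under the low end in GR-bdl with DEX too (3.75). Centred on the hybridization controls, 13 early auxin genes were called lower and 3 higher between mp and GR-bdl without DEX, and 4 lower and 9 higher between mp and GR-bdl with DEX. The shares of all probe sets under that centring were 32.5% lower and 11.2% higher, and 29.6% lower and 12.5% higher, in the same order.

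**Figure D4:**
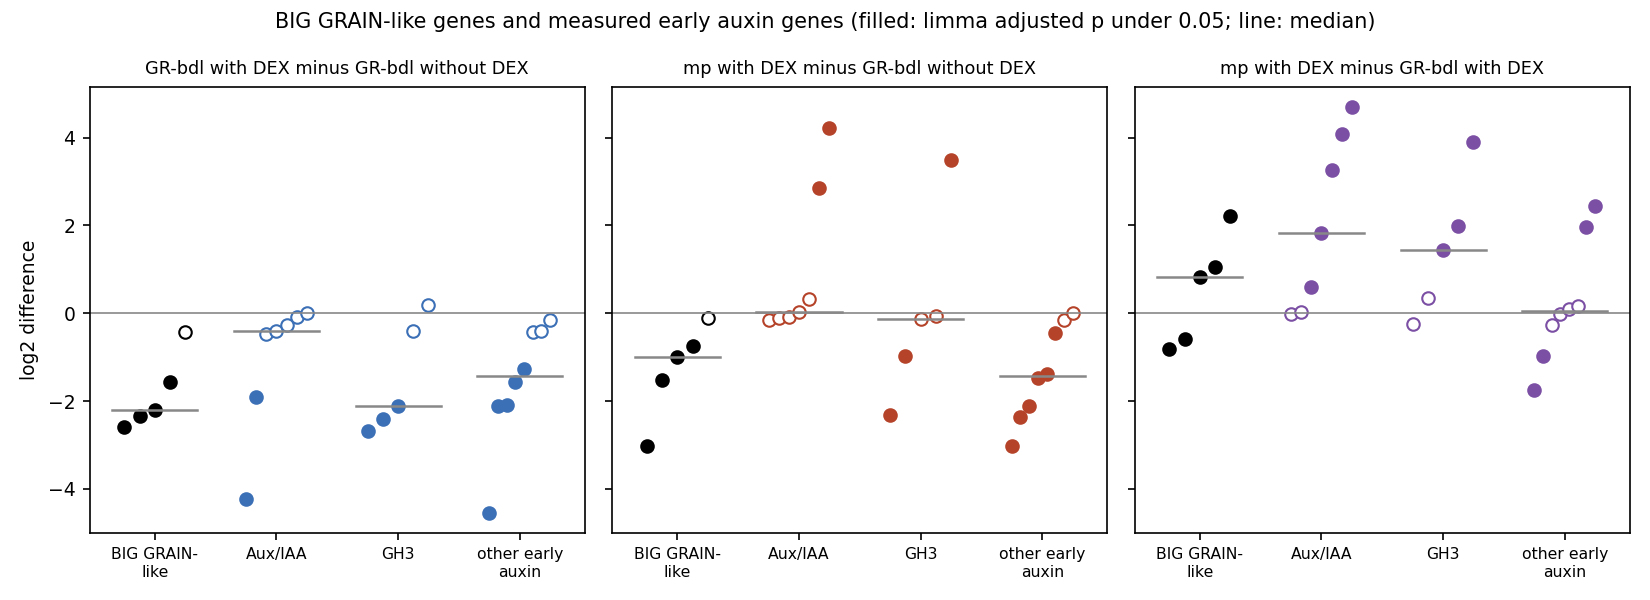
Log2 differences of the 5 BIG GRAIN-like genes (black) and of the measured Aux/IAA, GH3 and other early auxin genes (coloured) in the 3 comparisons, 1 panel each; filled points had a limma adjusted p under 0.05 and grey lines are medians. The BIG GRAIN-like medians are −2.21, −1.01 and 0.82 from left to right.

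Auxin transport genes were listed because rice BIG GRAIN1 is linked to auxin transport, but 2 of 25 had a probe set paired with them alone and were measured in that sense. WAG2, whose AGC kinase acts on auxin transporters, stood at a log2 difference of −1.15 ± 0.21 between GR-bdl with and without DEX and of 0.70 ± 0.21 between mp and GR-bdl with DEX. Both were called by limma, but neither call held with every array left out in turn, and the second was also lost with the arrays centred on the hybridization controls (0.43). PID2, a related kinase gene under 4 on the log2 scale in all 3 groups, was not called in any comparison, apart from a lower call in mp against GR-bdl without DEX under that centring (−0.45). The reference genes SAND and TIP41 were not called in any comparison either, with differences between −0.08 and 0.18.

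**Figure D5:**
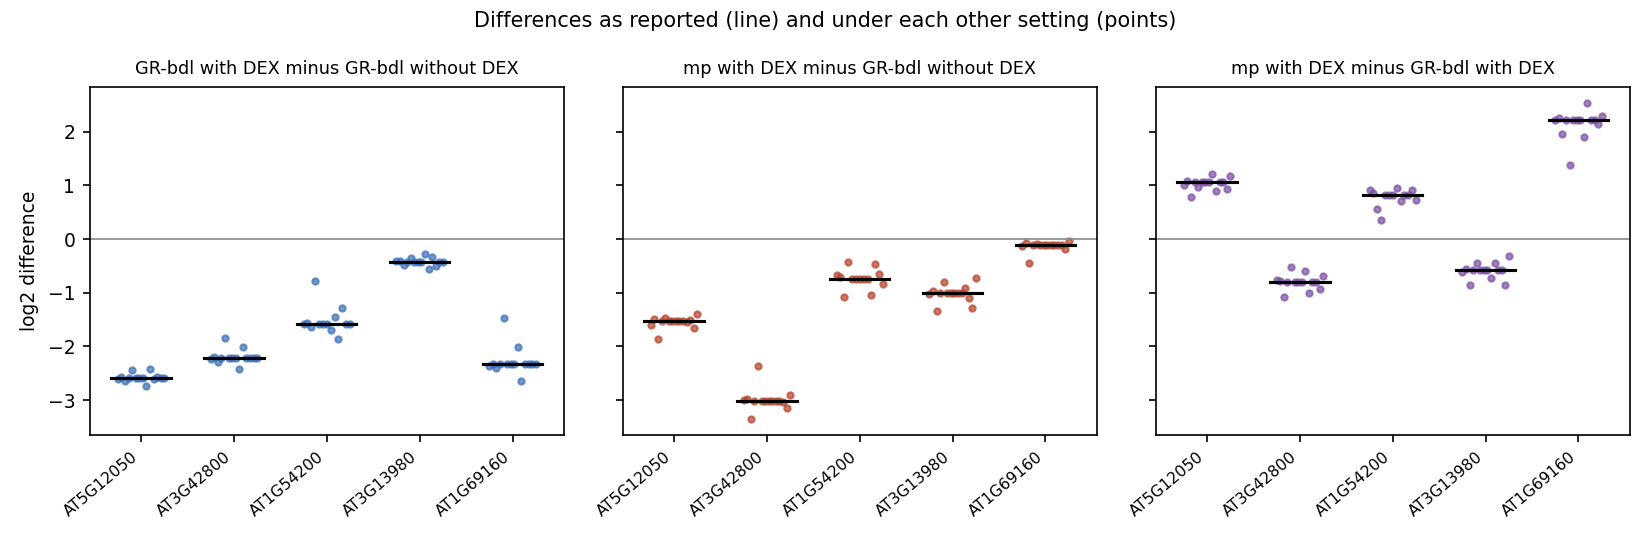
Log2 difference of each BIG GRAIN-like gene in the 3 comparisons as reported (black line) and under each other setting (points), including each array left out in turn. No point lies on the other side of 0 from its line, and the points of AT1G69160 for mp minus GR-bdl without DEX, from −0.45 to −0.04, come closest to 0.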

How the data were processed

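RNA of whole seedlings was hybridised to ATH1 arrays, 1 array per culture. The deposited values are gcRMA intensity values on a linear scale, 1 column per array; the tool is named, without a version, in the submitters' processing notes, and it corrects background by probe sequence, normalizes arrays to 1 distribution and summarises probes. Groups follow the source labels and the design text, as the labels' treatment text gives DEX for all samples. From the deposited intensities log2 values were computed with no pseudocount and no filter, without 64 control probe sets. Of the 22746 probe sets, 13484 were paired with 1 gene of the RefSeq table (TAIR10.1, used for names only). Tests used limma 3.58.1 under R 4.3.3 (a mean per group, all 6 arrays, eBayes, 3 residual and 5.12 prior degrees of freedom), with Benjamini-Hochberg adjustment over all probe sets and a threshold of 0.05, and the code was tested on simulated data. The 5 genes, 7 lists and all alternatives were chosen with earlier results of these data known. The naming rule took every BIG GRAIN-like gene, the 5 most similar profiles of each, and up to 4 called genes of a list by smallest p; some that only repeat a group are left out. Where a listed gene had more than 1 probe set, the brightest was used. The alternatives were a repeated quantile normalization, centring on medians or on 18 hybridization controls, a filter on means above 4, a pseudocount of 16, robust eBayes with a trend, the 4 arrays compared alone, the replicate block, and each array left out. Figures and summaries used Python 3.11.15, numpy 2.4.6, pandas 2.3.3 and matplotlib 3.10.9.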

Additional observations from a re-analysis of the deposited data

How the results depend on the processing

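The differences of the 5 genes kept their sign in all 3 comparisons under each of the 14 alternatives that gave a value, and those of AT5G12050, AT3G42800 and AT1G69160 also kept their side of the call threshold. The number of BIG GRAIN-like genes called between mp and GR-bdl with DEX was 5, beside 40.1% of all probe sets called in either direction, and 3 with a pseudocount of 16, beside 36.3%. It ranged from 3 to 5 with each array left out, beside 33.3% to 37.3%. AT1G54200 (mean log2 level 3.98) was removed by the filter on low means, so that setting gives it no value. The number of probe sets called between GR-bdl with and without DEX was 517, and 231 with the pseudocount; it ranged from 240 without replicate 2 of GR-bdl without DEX to 437 with each array left out. The cause was not tested. With the replicate block 4, 4 and 5 of the genes were called in the 3 comparisons, beside 2.46%, 40.8% and 39.8% of all probe sets. The replicate numbers are not known to pair the cultures: deviations of same-numbered arrays correlated at −0.02 (GR-bdl with and without DEX), 0.13 (mp and GR-bdl with DEX) and −0.06 (mp and GR-bdl without DEX) across 13029 probe sets. A repeated quantile normalization, both centrings, the replicate block and robust eBayes with a trend changed no call of the 5 genes. The number of arrays limits what can be said of the small differences of AT1G54200, which lies near the low end, and of AT3G13980, which does not.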
